A study of Mus musculus with 13 samples.

Results

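A set of 10 genes that hold resting lymphocytes out of the cell cycle (Klf2, Foxo1, Foxp1, Btg1, Btg2, Tob1, Txnip, Cdkn1b, Pdcd4 and Tsc22d3) was followed through single mouse B cells that had been stimulated to divide. The genes were chosen by name, and all 10 were found by Ensembl identifier among the 37991 genes of the count table. Naive B cells came from the spleens of wild-type C57BL/6 mice aged 6 to 8 weeks and were cultured for 24 h with 250 nM CpG ODN 1668, an oligonucleotide that stimulates TLR9 (another label field gives the dose as ng/mL). Cells were captured on a microfluidic chip, imaged, lysed and sequenced singly. Of the cells, 5 were large and are called by their wells, C1, C3, E1, E3 and G2. The other 5 were small, from wells A2, C12, C7, F7 and H1. A bulk control labelled Positive held diluted cDNA of cells at 24 h, a negative control held spike-in RNA only, and a further library was labelled as a 0 h bulk sample. All sequenced cells had therefore seen CpG for the same time, and the cells differed by size alone in their labels.

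Quiescence is an actively kept state in which a lymphocyte stays small, makes little protein and does not enter the cell cycle. Transcription factors of the KLF and Forkhead families sustain it, proteins of the BTG/TOB family bring the Ccr4-Not deadenylase to messenger RNAs and shorten their poly(A) tails, and further proteins restrain glucose uptake, cyclin-dependent kinases and translation. In resting T and B cells these transcripts are known to be abundant, and several are lost early after an antigen or Toll-like receptor signal.

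Depth was 3311235 to 6311782 gene counts per cell, 1740862 in the 24 h bulk library and 190 in the negative control, where Foxo1 had 1 count and the other 9 genes had none. The 8 B-cell markers, among them Cd79a and Ms4a1, were all read in the 4 large cells other than C3 (summed level 11366 to 35420 CPM, that is counts per 1000000 gene counts) and in the 5 small cells (11535 to 50985 CPM). Cell C3 had 3922 CPM, with Cd79a, H2-Ab1 and Pax5 at 0. It was omitted here, as in the study's methods, unless it is named. Of 8 T-cell markers only Lck was read in any cell, at up to 41.1 CPM in large and 107 CPM in small cells, and neutrophil, NK-cell and erythroid markers were at 0. Of 6 myeloid markers, Adgre1 and Fcer1g gave most of the signal, with summed levels of 0 to 1890 CPM in large and 0 to 914 CPM in small cells, while Lyz2 and Cd14 were at 0. Of 4 plasma-cell markers, summed at 1.73 to 733 CPM in large and 0 to 1799 CPM in small cells, Prdm1 had 721 CPM in large cell G2, 603 in small cell C12 and 194 in small cell A2, and Xbp1 had 922 CPM in A2 and 1196 in C12. The part of these markers in the results below was not tested. No mouse or culture is named for a cell, so each size group counted as 1 sample: differences by size cannot be set against replicates and get no p-value, and all intervals given are exact 95% intervals that cover counting error only.

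A cell was called on for a gene when its adjusted count (the count times the authors' spike-in factor, plus 100) exceeded 300. By this measure the 10 genes fell into 3 tiers. Foxp1 was on in all 9 cells and Btg1 in 8, which placed them among the 2.72% of the 6435 detected genes that were on in 9 cells and the 5.21% on in at least 8. Btg2 was on in 5 cells, Foxo1 and Txnip in 4 each, Tsc22d3 in 3 and Cdkn1b in 1, against 21.0% of detected genes on in at least 5 and 31.1% in at least 4. Klf2, Pdcd4 and Tob1 were on in none of the 9, so that 7 of the 10 genes counted as detected. The plot of levels by library shows these tiers as bands that cross both size groups.

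**Figure D1:**
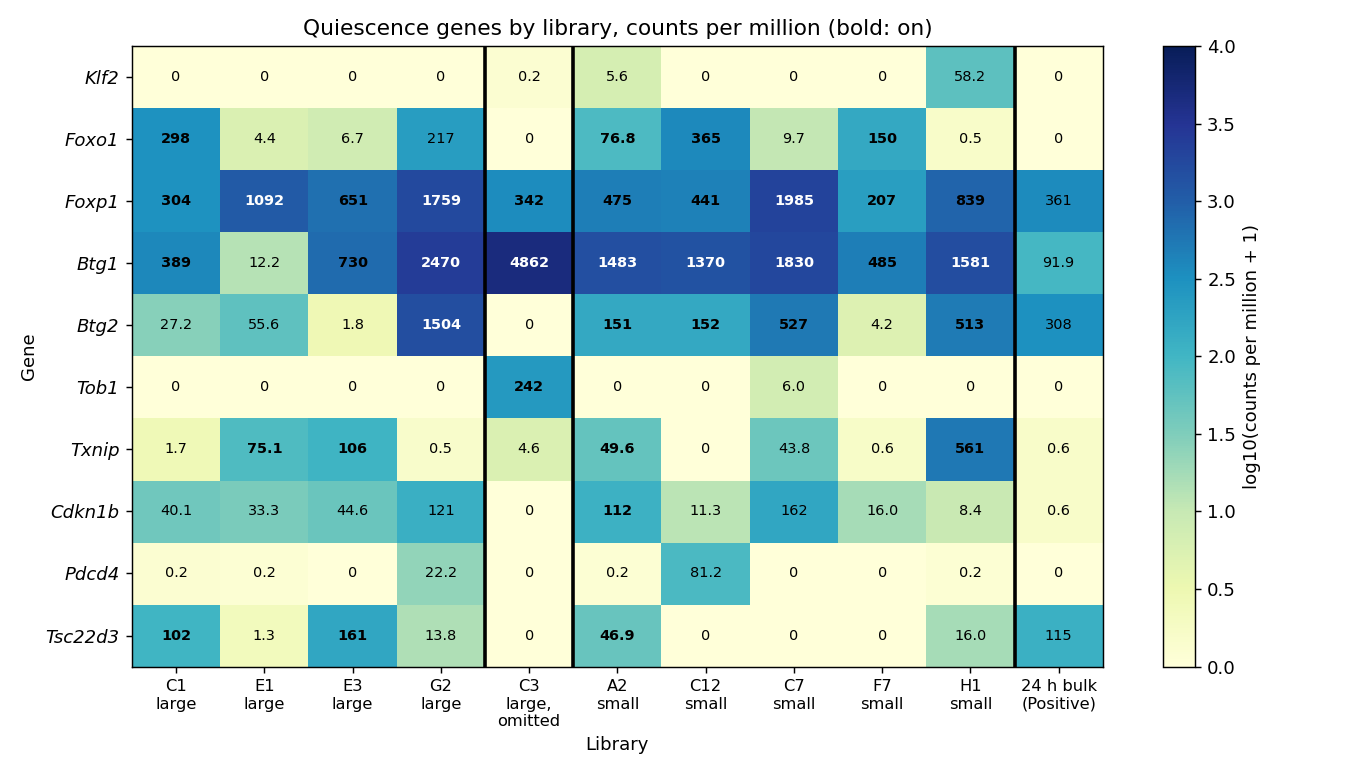
Levels of the 10 genes (rows) in 4 large cells, C3, 5 small cells and the 24 h bulk library (columns), printed as CPM and shaded on a log10 scale; bold marks a gene that was on in that cell. Foxp1 and Btg1 are dark across both size groups, Klf2, Tob1 and Pdcd4 are near 0 in most cells, and the bulk library has 6 of the 10 genes.

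Among the transcription factors, Klf2, a zinc-finger factor that keeps naive lymphocytes quiescent and recirculating, was almost absent. It had 0 counts in the large cells C1, E1, E3 and G2 and in the small cells C12, C7 and F7, and was read in the small cells H1 (320 counts, 58.2 CPM) and A2 (29 counts, 5.57 CPM). Of the 9 cells, only these 2 small ones had reads, and the level in H1 made 91.3% of the sum over the 9 cells. A floor of 3 counts would give 0.742 CPM in the shallowest of the large cells C1, E1, E3 and G2. This floor covers counting error only, not transcript lost before sequencing.

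Foxo1, the Forkhead factor that PI3K signaling through Akt expels from the nucleus, was split between high and near-empty cells within both size groups. The large cells had 298 CPM in C1, 217 in G2, 6.68 in E3 and 4.44 in E1, and the small cells had 365 CPM in C12, 150 in F7, 76.8 in A2, 9.66 in C7 and 0.546 in H1. The groups overlapped over nearly their whole range. Large cell G2 had 1214 Foxo1 counts and still was not on, because its spike-in factor set the line at 2005 counts, whereas 213.9 counts sufficed in small cell A2, where 400 were read.

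Foxp1, a Forkhead repressor needed for early B-cell development and for the quiescence of naive T cells, was the steadiest of the 10. It had 1759 CPM in G2, 1092 in E1, 651 in E3 and 304 in C1 among large cells, and 1985 CPM in C7, 839 in H1, 475 in A2, 441 in C12 and 207 in F7 among small cells. No cell was without it, and the highest and lowest cell were both small. Part of this signal may be shared: the gene model Gm20696 overlaps 300 bases of Foxp1 exons on the same strand and had 1942 counts over the 10 cells, and how shared bases were counted is not given in the sources used.

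In the BTG/TOB family, Btg1 was the highest of the 10 genes on average, Btg2 varied between cells by orders of magnitude, and Tob1 was missing from nearly every cell. Btg1, an antiproliferative adaptor of the deadenylase, had 2470 CPM in G2, 730 in E3, 389 in C1 and 12.2 in E1 among large cells. In the small cells it had 1830 CPM in C7, 1581 in H1, 1483 in A2, 1370 in C12 and 485 in F7. Large cell E1, with 77 counts, was the only one of the 9 in which Btg1 was not on. The processed pseudogene Btg1-ps1 had 0 counts in every cell.

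Btg2, a p53-inducible relative of Btg1 with the same partner, had 1504 CPM in G2, 55.6 in E1, 27.2 in C1 and 1.84 in E3 among large cells. The small cells had 527 CPM in C7, 513 in H1, 152 in C12, 151 in A2 and 4.20 in F7. Large cell G2 alone held 51.2% of the Btg2 level summed over the 9 cells, yet the other 3 large cells all lay below the 4 highest small cells. The same cell had the highest summed level of both the myeloid markers (1890 CPM) and the B-cell markers (35420 CPM) among large cells, and their part in its Btg2 level was not tested. Tob1, the third family member, had 20 counts in small cell C7 and 0 in the other 8 cells, so a level above the 3-count floor of 0.475 to 0.906 CPM was read in 1 cell only.

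Of the genes that act on metabolism, the cell cycle and translation, Cdkn1b was the most evenly spread, whereas Txnip and Pdcd4 each had most of their summed level in 1 cell. Txnip encodes an arrestin-like protein that limits glucose uptake and binds thioredoxin. Its level was 106 CPM in E3, 75.1 in E1, 1.73 in C1 and 0.537 in G2 among large cells, and 561 CPM in H1, 49.6 in A2, 43.8 in C7, 0.646 in F7 and 0 in C12 among small cells. Small cell H1 held 66.9% of the summed level, and large and small cells overlapped.

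Cdkn1b, which encodes the cyclin E-Cdk2 inhibitor p27, was read in all 9 cells at low levels. The large cells had 121 CPM in G2, 44.6 in E3, 40.1 in C1 and 33.3 in E1, and the small cells had 162 CPM in C7, 112 in A2, 16.0 in F7, 11.3 in C12 and 8.37 in H1. All 4 large cells thus lay inside the range of the small cells. It was on in small cell A2 alone.

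Pdcd4, an inhibitor of the translation helicase eIF4A, had 124 counts (22.2 CPM) in large cell G2, 468 counts (81.2 CPM) in small cell C12, and 0 or 1 count in the other 7 cells. Tsc22d3, the glucocorticoid-induced leucine zipper GILZ, had 161 CPM in E3, 102 in C1, 13.8 in G2 and 1.27 in E1 among large cells, and 46.9 CPM in A2, 16.0 in H1 and 0 in C12, C7 and F7 among small cells. Every large cell had Tsc22d3 reads and 3 of 5 small cells had none. In E1 this rested on 8 counts.

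To ask whether growth goes with less of these transcripts, the 4 large cells were set against the 5 small cells on the study's own scale. A gene was called by score when the share of large cells that were on exceeded that of small cells by at least 0.5, or fell short by as much, and called 2-fold when the log2 ratio of mean adjusted counts was at least 1 in size. By score 0 of the 7 detected quiescence genes were higher in large cells and 1, Btg2, was lower, against 5.83% and 1.88% of the 6435 detected genes. By ratio 0 were 2-fold higher and 1, Btg1, was 2-fold lower, against 16.1% and 14.3% of detected genes. The median log2 ratio of the 7 was -0.30, beside 0.02 over all detected genes, with 3 above and 4 below 0. With each library scaled to its total count in place of the spike-ins, the median of the same 7 genes was 0.11, so the side on which the set lay depended on the scale.

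**Figure D2:**
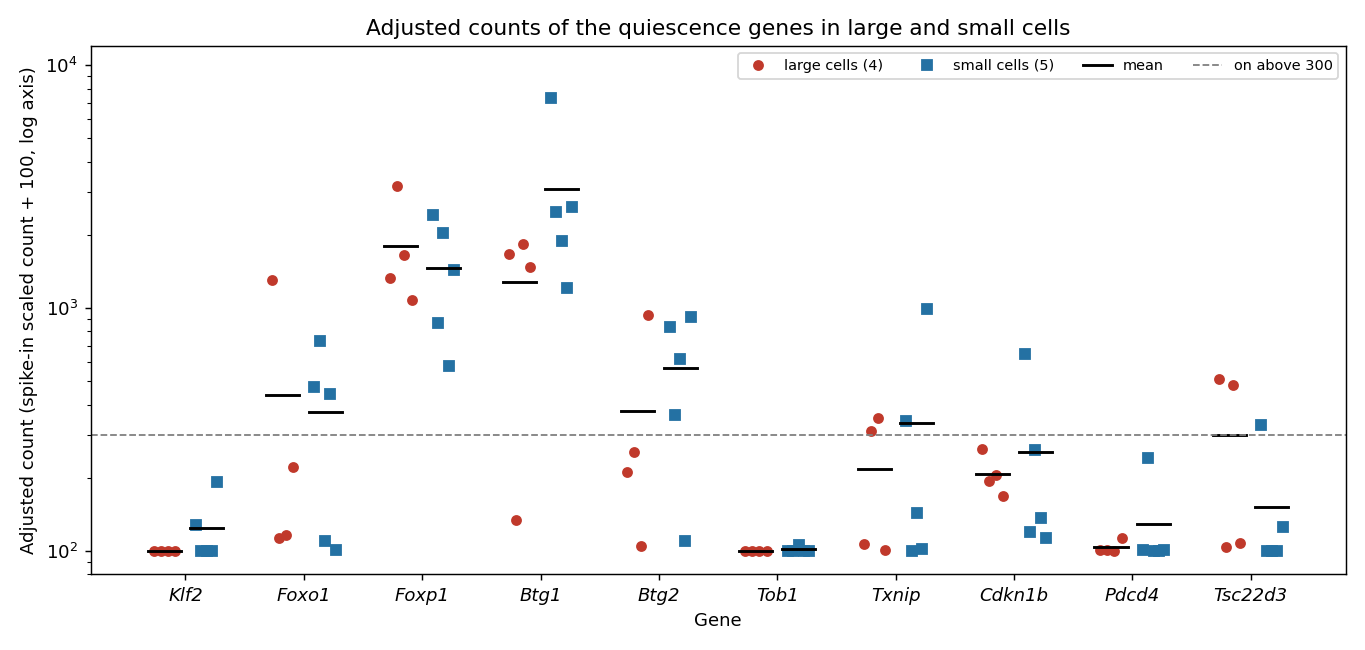
Adjusted counts (log axis) of the 10 genes in each of 4 large cells and 5 small cells; bars are means and the dashed line marks 300, above which a gene is on. The size groups overlap for Btg1 and Btg2, the only genes called lower in large cells, and Klf2, Tob1 and Pdcd4 stay below the line in all 9 cells.

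Among large cells 3 of 4 were on for Btg1, and among small cells 5 of 5, with mean adjusted counts of 1279 in large and 3101 in small cells and a log2 ratio of -1.28. The sums behind it were 19826 counts (19551 to 20104) in large cells and 33360 (33003 to 33720) in small cells. The mean of the small cells owed much to A2, whose adjusted count was 7317, against 1209 to 2613 in the other 4. In CPM A2 had 1483, inside the 485 to 1830 of the other small cells. Its spike-in factor was 0.935, against 0.289 to 0.370 in those cells. Without A2 the ratio was -0.68 and without E1 it was -0.90, so Btg1 no longer passed 2-fold without either cell; with library totals as the scale it was -0.57 and with C3 kept -0.74. Its sign was negative in all 14 alternative settings that change the ratio. Leaving out a cell also moved the median log2 ratio of all detected genes from 0.02. That median was 0.53 without A2, -0.11 without E1 and -0.38 without C1. Ratios with these cells left out, here and below, stand beside these medians.

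For Btg2, 1 of 4 large cells and 4 of 5 small ones were on, a score of -0.55. Mean adjusted counts were 377 in large and 568 in small cells, a log2 ratio of -0.59, which was -1.58 without large cell G2. The summed counts ran the other way, with 8877 (8693 to 9064) in large cells and 6254 (6100 to 6411) in small cells, and on library totals the ratio turned to 0.53. Of the large-cell sum, G2 alone gave 8405 counts, while C1 had 110, E1 351 and E3 11. Left out in turn, large cells E1 and E3 each ended the call by score, as did C1, without which Foxo1 was called lower instead.

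Tsc22d3 had the highest ratio of the 7, with 2 of 4 large and 1 of 5 small cells on and mean adjusted counts of 301.0 in large and 150.7 in small cells. Its log2 ratio fell just short of 2-fold and rounded to 1.00, with 0.62 without C1 and 1.50 without A2. It was positive in all 14 settings and reached 1.49 on library totals. The sums were 1458 counts (1384 to 1535) in large and 332 (297 to 370) in small cells.

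The other detected genes changed direction with single cells. Foxo1 had a log2 ratio of 0.24, which became -1.31 without large cell C1, although 1 of 4 large cells and 3 of 5 small ones were on. Foxp1 had 0.30 and reached -0.12 without E1. Txnip had -0.62, and 0.34 without small cell H1. Cdkn1b had -0.30, and 0.40 without small cell A2. The plot of ratios under the alternative settings shows that Btg1 and Tsc22d3 alone stayed on one side of 0 under every setting drawn.

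**Figure D3:**
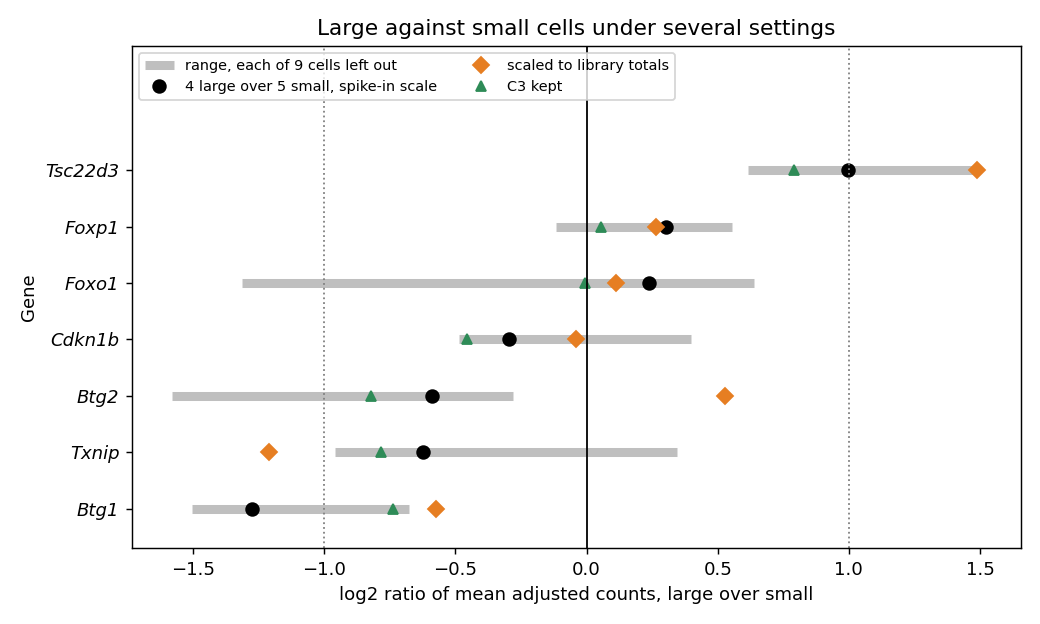
Log2 ratio of mean adjusted counts, large over small cells, for the 7 detected genes; black points are 4 large over 5 small cells on the spike-in scale, grey bars span the values with each of the 9 cells left out, diamonds use library totals and triangles keep C3. Dotted lines mark 2-fold. Btg2 has its spike-in value at -0.59 and its library-total value at 0.53.

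The summed level of the 10 genes did not separate the size groups. Large cells had 1161 to 6108 CPM (median 1488) and small cells 863 to 4564 CPM (median 2419). The number of the 10 genes that were on was 2 to 4 in large and 3 to 7 in small cells. The highest of these, 7 in small cell A2, stood beside the highest share of all detected genes on, 59.3%, where the other small cells had 14.9 to 33.2% and the large cells 10.2 to 48.2%. The part of this difference in RNA recovered per cell was not tested.

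Within cells, the clearest relation between members was between Foxo1 and Txnip, which took opposite levels. Where Foxo1 was at 150 CPM or more (large cells C1 and G2, small cells C12 and F7), Txnip was at most 1.73 CPM. Where Foxo1 was below 10 CPM (large cells E1 and E3, small cells C7 and H1), Txnip was at least 43.8 CPM. Small cell A2 was intermediate in both, with 76.8 CPM of Foxo1 and 49.6 CPM of Txnip, and was the one cell in which both were on.

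**Figure D4:**
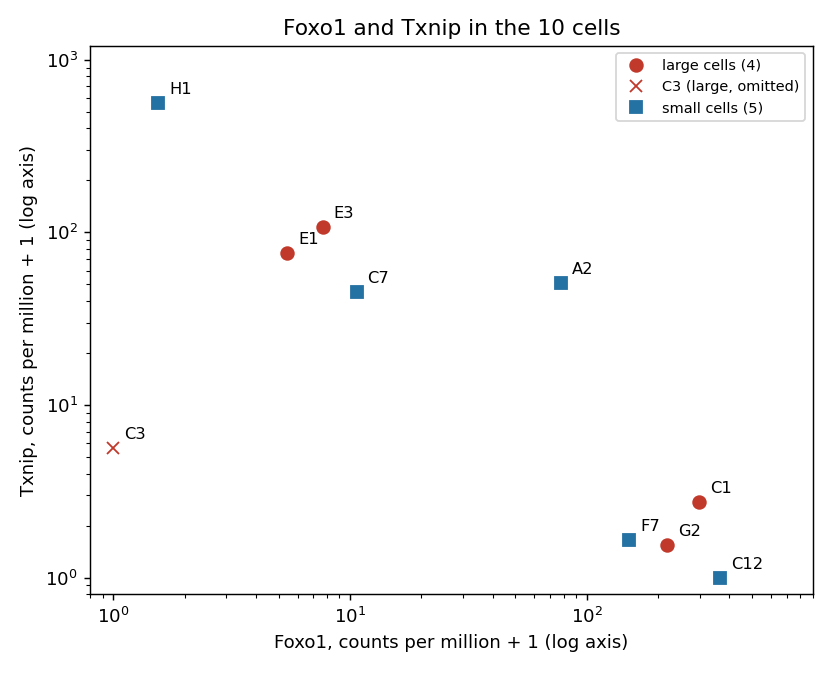
Foxo1 (horizontal) against Txnip (vertical) in each cell, both as CPM plus 1 on log axes; circles are large cells, squares small cells and the cross is C3. In all, 4 cells lie at the lower right with Foxo1 at 150 CPM or more, 4 at the upper left with Foxo1 below 10 CPM, each made of 2 large and 2 small cells, A2 lies between them and C3 is low in both.

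Over the 9 cells the levels, as log2(CPM + 10), had a Pearson r of -0.91 and the ranks a Spearman rho of -0.92, and r was -0.93 to -0.89 with any one cell left out. With C3, where Foxo1 was at 0 and Txnip at 4.60 CPM, r was -0.72 over 10 cells. This pair was picked after its values were seen, as the lowest of 28 pairs among the 8 members with reads in at least 5 cells, and the next lowest was -0.51 for Txnip and Pdcd4. Of 6115 genes compared with Foxo1 in the same way, Foxo1 and Txnip among them, 3 had an r at or below that of Txnip, counting Txnip itself. The cells shared 1 chip and 9 points carry no replicate check, so the relation is given as a description. The highest pair was Foxp1 and Btg2, at 0.72.

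Each of these genes has an antisense gene model on the opposite strand, Gm20402 over 674 exon bases of Foxo1 and Gm15441 over 606 of Txnip. Both models had 0 counts in the 10 cells.

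To show the sequence near these genes, the 250 bases before each RefSeq transcription start (GRCm38.p6) were searched for the Forkhead core GTAAACA and its reverse complement TGTTTAC. Of 15 windows of the 10 genes, 2 held it, those of Txnip and Btg1, and 3.17% of all 32851 windows did. The exact E-box CACGTG, a site type bound by bHLH factors such as Myc, was in 0 of the 15 windows and 6.02% of all. Inexact forms of the E-box were not searched for. The 2 windows are shown because they hold the core next to the gene opposite to Foxo1 in level and next to the most abundant member, with the matching bases in capitals.
Txnip, chr3:96557707-96557956, plus strand: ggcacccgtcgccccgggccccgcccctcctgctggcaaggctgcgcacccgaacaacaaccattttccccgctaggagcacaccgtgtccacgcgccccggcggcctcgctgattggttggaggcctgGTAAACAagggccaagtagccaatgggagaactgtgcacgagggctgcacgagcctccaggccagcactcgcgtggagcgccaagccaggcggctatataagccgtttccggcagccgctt
Btg1, chr10:96616751-96617000, plus strand: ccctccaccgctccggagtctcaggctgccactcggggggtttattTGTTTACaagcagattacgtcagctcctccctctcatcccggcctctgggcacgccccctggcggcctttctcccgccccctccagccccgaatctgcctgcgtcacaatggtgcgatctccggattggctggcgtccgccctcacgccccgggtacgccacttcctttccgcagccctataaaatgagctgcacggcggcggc
The match starts 121 bases before the Txnip start and 204 bases before the Btg1 start, where it reads as the reverse complement. Btg1 and Foxo1 had an r of 0.26 over the 9 cells, against -0.91 for Txnip and Foxo1. The 2 genes with the core thus differed in how their levels ran with Foxo1. Btg1 and Foxo1 were both on in 4 cells, but Btg1 was on in 8 of the 9, so this count carries no weight. A match of letters is a description and says nothing of binding.

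Ranked per length (mean CPM per kilobase of exon over the 9 cells), Btg1 stood first at 218 and Btg2 second at 119. They were followed by Foxp1 at 62.6, Txnip at 29.8, Foxo1 at 14.5, Cdkn1b at 13.4 and Tsc22d3 at 8.71, and last came Klf2 at 3.84, Pdcd4 at 3.69 and Tob1 at 0.293. The spread between cells was wide, for example 2.31 to 468 for Btg1 and 15.1 to 144 for Foxp1. The ranges over cells overlapped between every pair of neighbours in this order, and even Btg1 in its lowest cell, at 2.31, lay below Tob1 in its highest, at 2.64.

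The 9 cells were next set against the 24 h bulk library, to place the levels of single cells beside that of a pool. In all, 6 of the 10 genes were at least 2-fold higher in the mean of the 9 cells (Foxo1, Foxp1, Btg1, Txnip, Cdkn1b and Pdcd4) and 1, Tsc22d3, was at least 2-fold lower, against 53.1% and 20.3% of 7344 genes at 10 CPM or more on either side. Klf2 and Tob1 did not reach that minimum, so the member counts were 6 and 1 of 8. This is 1 bulk library of lower depth, and the cells were picked as the largest and the smallest on the chip, so their mean is not that of a random sample. The bulk library also had markers of other cells: Lck was at 351 CPM, against at most 107 CPM in a cell, Ncr1 at 186 CPM, against 0 in every cell, and Adgre1 at 636 CPM. Their part in the differences was not tested. In it, 44.7% of the 6835 genes with a mean of 10 CPM or more in the cells had no read. In a bulk sample, fewer cells that carry a transcript and less of it per cell cannot be told apart.

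Foxo1 averaged 125 CPM in the 9 cells and had 0 counts in the bulk library. Its mean was 72.7-fold above the level that a floor of 3 bulk counts would give. The exact interval for 0 counts reached 3.69 counts, so 72.7 is not a lower bound. Btg1 averaged 1150 CPM in the cells, against 91.9 CPM (78.2 to 107) in bulk, a 12.5-fold difference (10.7 to 14.7 for counting error in bulk), and it was above bulk in 8 of 9 cells. Foxp1 averaged 861 CPM, against 361 CPM (334 to 391) in bulk, and lay above it in 7 of 9 cells; without small cell C7 its log2 ratio was 0.98, just under 2-fold. Txnip and Cdkn1b averaged 93.1 and 61.1 CPM in cells, and each had 1 count in bulk, which gives ratios of 162 (29.1 to 6402) and 106 (19.1 to 4198). The Txnip mean was 34.7 CPM without small cell H1. Pdcd4 averaged 11.6 CPM and had 0 bulk counts, 6.71-fold above the same floor of 3 bulk counts, a value that rested on small cell C12.

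Btg2 and Tsc22d3 behaved otherwise. Btg2 averaged 326 CPM in the cells, against 308 CPM (282 to 335) in bulk, a log2 ratio of 0.08, but it exceeded the bulk level in only 3 of 9 cells and the ratio was -0.75 without G2. Tsc22d3 averaged 37.8 CPM in the cells, against 115 CPM in bulk (201 counts, 174 to 231). It exceeded bulk in 1 cell, E3, and its log2 ratio was -1.39, or -1.95 without that cell. Klf2 and Tob1 had 0 counts in bulk and were below 10 CPM on both sides.

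Cell C3, large by its label, had its own set of these transcripts. Btg1 reached 4862 CPM (20078 counts), the highest of any library, and Tob1, absent from 8 of the other 9 cells, had 242 CPM (1000 counts). Foxp1 was at 342 CPM. Foxo1, Btg2, Cdkn1b, Pdcd4 and Tsc22d3 were at 0, where each of the other 9 cells had Foxo1, Btg2 and Cdkn1b reads. A pair of lymphocyte genes that Foxo1 and Klf2 are known to sustain were also high there: Ccr7, a homing receptor, had 18305 counts and Il7r, the interleukin-7 receptor chain, 7010, while Il7r was otherwise read only in A2, with 327.

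Genes around the members were then counted from 3 lists. Of 30 other genes of quiescence and growth restraint, 29 were in the table and 16 detected. By score 0 were higher and 0 lower in large cells. By ratio 2 of the 16 were 2-fold higher (Cdkn2c and Rc3h1) and 2 lower (Rbl2 and Ccng2), beside 16.1% and 14.3% of all detected genes, and the median log2 ratio was -0.39. Each of these calls ended with 1 cell left out: Cdkn2c had -0.10 without E3, Rc3h1 -0.27 without E1, Ccng2 0.02 without H1 and Rbl2 -0.80 without F7. Among those on in at least 3 cells, Rb1, the retinoblastoma pocket protein, had 0.75 and Slfn2, a Schlafen gene needed for T-cell quiescence, 0.10, while Foxn3 had -0.38 and Klf13 -0.39. For Klf13, 3 of 4 large cells and 5 of 5 small ones were on, more widely than Klf2, Klf3 or Klf4, which were on in none.

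Of 10 genes downstream of Foxo1 and Klf2 in lymphocytes, 6 were detected, none was called by score and 1, Ccr7, was 2-fold lower in large cells, a share near the 14.3% of all detected genes, with a list median of -0.53. Ccr7 averaged 241 adjusted counts in large and 1547 in small cells, a log2 ratio of -2.68, which was -0.57 without A2 and -0.70 with C3 kept, so that the call ended under either. Cr2, a complement receptor, had -0.37 and Bach2, a repressor of plasma-cell differentiation, -0.06.

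Of 21 partners of the members, 20 were in the table and 17 detected, with a median log2 ratio of 0.18, which was -0.01 with C3 kept. By score 2 of the 17, beside 5.83% of all detected genes, were higher in large cells, Nr3c1, the glucocorticoid receptor that induces Tsc22d3, and Cdk2, the kinase that p27 inhibits, and 0 were lower. Their log2 ratios were 0.93 and 2.11, and leaving out large cell C1 or E1 ended both calls, as did counting a gene as on with at least 1 read. By ratio Cdk2 and Cnot1 (1.50), the scaffold of the deadenylase to which Btg proteins bind, were 2-fold higher, whereas its subunits Cnot2 (-1.41) and Cnot7 (-1.57), the catalytic subunit that BTG and TOB proteins contact, were 2-fold lower. Of the 17 these are 2 and 2, no more than the 16.1% and 14.3% of all detected genes. Each of these 3 subunit calls ended with 1 cell left out, with 0.54 for Cnot1 without C1, -0.85 for Cnot2 without F7 and 0.06 for Cnot7 without A2. Cnot1 was moreover on in a smaller share of large cells, 2 of 4, than of small ones, 4 of 5. Of the other subunits, Cnot6 had 0.99, and -0.37 without E1, and Cnot8 had -0.38. Il7r, and the genes of these lists called 2-fold or by score but on in fewer than 3 cells, were named after their values were seen.

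For each member with reads in at least 5 of the 10 cells, the gene most like it was sought among 6107 genes by Pearson r of log2(CPM + 10). These were Nudt21 for Tsc22d3 (0.96), Adat2 for Pdcd4 (0.96), Nadk for Foxo1 (0.94), Macf1 for Btg2 (0.94), Gm4997 for Foxp1 (0.93), Golph3l for Txnip (0.91), Sgf29 for Cdkn1b (0.90) and Nek7 for Btg1 (0.86). Nadk, the kinase that makes NADP, followed Foxo1 cell by cell, with 129 to 539 CPM in the 4 cells highest in Foxo1 and A2, and at most 9.65 CPM in the others. Gm4997 had at most 2 counts in any cell, so its likeness to Foxp1 has no weight. Each is the best of 6107 genes over 10 cells that share a chip.

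The library labelled 0 h could not serve as the resting state. All 10 genes had reads there, 3 for Tob1 to 81 for Foxp1, and 9 had more than 3. But 87.1% of all genes in the table had a read, the gene model Gm10800 took 27.0% of its 825441 counts, and its B-cell markers had only 4 to 25 counts beside 6 to 33 for T-cell markers. Its values go against its label as B-cell RNA, and no ratio to it is given. How far these transcripts had changed since before stimulation was therefore not analysed here.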

How the data were processed

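RNA of 10 single B cells and 3 control libraries was amplified (SMARTer), prepared with Nextera XT and sequenced, with ERCC spike-in RNA in each lysis. Reads were aligned by the authors to mouse build m37 and its Ensembl genes with STAR, as the methods and the submitters' processing notes state. Neither the STAR version nor the read counter is given in the sources used here. The deposited values used were raw counts of reads per gene, which are whole numbers, and for each library a ratio, the linear factor the authors fitted to the spike-ins. Left out were 26 columns holding other per-sample values, and the authors' own score per gene and their enrichment tables. PCR reads without molecular identifiers are not independent molecules, so intervals and the floor of 3 counts cover counting error only.

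Genes were matched by Ensembl identifier (32919 of 37991 had a symbol). Adjusted counts were counts times the factor plus 100, and on meant above 300. Genes on in at least 1 of 9 cells were detected. Levels were compared across libraries as CPM, and between genes per kilobase of exon (GENCODE, GRCm38, a later build than the authors'). Cells were set against bulk as log2(CPM + 10), for genes at 10 CPM or more on either side. Large cells were C1, E1, E3 and G2 (n = 4), small cells A2, C12, C7, F7 and H1 (n = 5); C3 was left out as in the methods. With 1 sample a group no test was run. Simulated counts of 37991 genes with no variation between cells served to check the code alone. From just below the threshold, 100 of 100 genes raised 4-fold in large cells were called higher. Of those raised 4-fold in small cells, 100 of 100 were called lower. This says nothing of the score in variable cells. Alternatives were other thresholds, constants, scalings and pseudocounts, C3 kept and each cell left out.

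The 10 genes and the other lists were chosen with earlier results of these data known. Named genes were all 10 members, of each other list the 2 highest and 2 lowest log2 ratios among genes on in at least 3 of 9 cells, and the 1 gene most like each member; others are named as chosen later. Promoter windows came from RefSeq (GRCm38.p6). Scripts ran under Python 3.11.15 with pandas 2.3.3, numpy 2.4.6, matplotlib 3.10.9 and scipy 1.17.1.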

Additional observations from a re-analysis of the deposited data

Results flagged for a closer look

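Within a size group of 5 cells (C3 included among the large), a cell far from the other 4 was found in 8 of the 20 groups, each gene being tested once in large and once in small cells. For normally spread values chance flags about 1 in 20 groups, but a group in which 1 cell alone has reads is always flagged, so the 8 are not read against that rate. In large cells, Btg2 in G2 (1504 CPM, others 0 to 55.6), Pdcd4 in G2 (22.2 CPM, others 0 to 0.247), Tob1 in C3 (242 CPM, others 0) and Klf2 in C3 (0.242 CPM, which is 1 read, others 0) stood apart. In small cells, Txnip in H1 (561 CPM, others 0 to 49.6), Klf2 in H1 (58.2 CPM, others 0 to 5.57), Pdcd4 in C12 (81.2 CPM, others 0 to 0.192) and Tob1 in C7 (6.04 CPM, others 0) did so. The 3 genes that were on in none of the 9 cells, Klf2, Pdcd4 and Tob1, made 6 of the 8, each with reads in few cells. In the library labelled 0 h, which entered no comparison, 9 members had more than 3 counts.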

How the results depend on the processing

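The calls among the members rested on single cells and on the scale. The number called higher in large cells by score, 0, became 1 with on above 150 (Cdkn1b) and with at least 1 read (Tsc22d3). It was 0 to 1 with a cell left out (1 without A2). Calls over all detected genes moved too. In the main setting 375 of 6435 were higher, and 463 of 8295 with on above 150. With at least 1 read 651 of 13107 were higher, and without A2 783 of 5729. The number called lower by score, 1, became 0 with on above 150, above 600 or with at least 1 read and on library totals. It was 0 to 2 with a cell left out (0 without E1 or E3, 2 without C7 or H1, which added Foxo1). Over all detected genes 121 of 6435 were lower in the main setting, 223 of 8295 with on above 150 and 69 of 4303 above 600. With at least 1 read 410 of 13107 were lower, and on library totals 225 of 7500. Without E1 these were 122 of 6215, without E3 126 of 6190, without C7 542 of 6340 and without H1 440 of 6307. The number 2-fold higher, 0, became 1 (Tsc22d3) with a constant of 10, on library totals and with medians over cells. It was 0 to 1 with a cell left out (1 without A2, E1 or G2). The median log2 ratio over all detected genes was 0.53 without A2, -0.11 without E1 and 0.24 without G2. All-gene 2-fold counts were not made under these settings. The number 2-fold lower, 1, became 0 with a constant of 1000 or with C3 kept and 2 (Foxo1 and Btg2) with medians, was 1 on library totals with Txnip in place of Btg1, and was 0 to 2 with a cell left out (0 without A2 or E1, 2 without C1 or G2). Of Btg1 and Btg2, the members called in the report, Btg2 changed sign, to 0.53 on library totals. Large cell G2 had 8405 Btg2 counts and the lowest spike-in factor of the 9 cells, 0.0998. The cause of the change was not tested. Other quiescence genes called lower by score, 0, were 0 to 3 with a cell left out (3 without C12 or H1, 2 without F7, 1 without C7), Klf13 was called lower with on above 600, and with at least 1 read Sesn3 was called lower and Btg3 higher. Over all detected genes 414 of 6256 were called lower without C12 and 380 of 6218 without F7. Partners called higher, 2, became 1 with C3 kept and were 0 to 2 with a cell left out (0 without C1 or E1). Over all detected genes 53 of 6560 were higher with C3 kept, 121 of 6037 without C1 and 146 of 6215 without E1. On above 150 called only Cnot6l, on above 600 only Cdk2, and at least 1 read none. Partners called lower, 0, were 0 to 2 (1 without C12, 2 without C7 or H1). Members at least 2-fold lower in cells than in bulk, 1, became 0 with a pseudocount of 50, and those at least 2-fold higher, 6, became 5 with that pseudocount and 7 with C3 kept (Tob1), and were 5 to 6 with a cell left out (5 without C12 or C7). The comparison of the bulk library at 24 h with the library labelled 0 h and its alternatives were not run, since its B-cell markers had only 4 to 25 counts, close to its T-cell markers. No paired analysis was possible because the result comes from no test and no label pairs a large with a small cell. The floor of 3 counts stands for 0.475 to 0.906 CPM in the 9 cells and 1.72 CPM in the 24 h bulk library. It covers counting error only, so a level of 0 may also hide transcript lost before sequencing.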
